A study of Mus musculus with 15 samples.

Results

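Chemokines are small secreted proteins that guide leukocytes, and their receptors are G protein-coupled receptors on the cells that follow them. All genes whose symbol begins with Ccl, Cxcl, Ccr, Cxcr or Cx3c followed by a digit, l or r were taken, which gave 57 of the 33058 genes listed in the kidney RNA-seq. They were 36 ligands, 19 receptors and 2 pseudogenes of Ccl19. The samples were kidneys of male mice labelled C57BL/6 (C57BL/6J in the study's text) with no treatment named, 5 mice at 3 months, 5 at 12 months and 5 at 24 months of age. Each mouse gave 1 library of whole kidney, so the 5 mice of an age are separate animals, and only males were used. The value of a gene was the sum of the FPKM (sequenced fragments relative to transcript length and library size) of its transcripts, of which the 57 genes had 139. The mice are called by their label numbers, 5 to 9 at 3 months, 17 to 21 at 12 months and 31 to 35 at 24 months, and values are given in that order.

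In the kidney, chemokines are made by tubular, endothelial, mesenchymal and immune cells. The CXC ligands that carry an ELR motif, such as Cxcl1 and Cxcl2, act on Cxcr2 and draw neutrophils, and their genes are classical targets of NF-kB. Cxcl9, Cxcl10 and Cxcl11 are induced by interferon and act on Cxcr3 of T cells. Ccl2, Ccl7 and Ccl12 draw monocytes through Ccr2. Homeostatic chemokines such as Cxcl12, Cxcl13, Ccl19, Ccl21 and Ccl25 place lymphocytes and other cells in tissue without inflammation.

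The whole kidney held little chemokine RNA. The mean over the 15 mice was below 1 FPKM for 39 members and above 5 FPKM for 6 members. Of the 57 members, 32 were above 0 in all 15 mice and 25 were listed at 0 in at least 1 mouse. Proximal tubule markers summed to 1219 to 1770 FPKM per mouse, as in kidney. The 3-month libraries were the shallowest, with 5.03 to 6.13 Gb of aligned bases against 5.84 to 8.03 Gb at 12 months and 6.07 to 7.33 Gb at 24 months. Between 42 and 48 members were above 0 in a 3-month library, against 49 to 52 at 12 months and 48 to 51 at 24 months. Depth moved with age, and its part in the differences of members below 1 FPKM was not tested. In a whole organ, fewer cells of a type and less RNA per cell cannot be told apart.

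**Figure D1:**
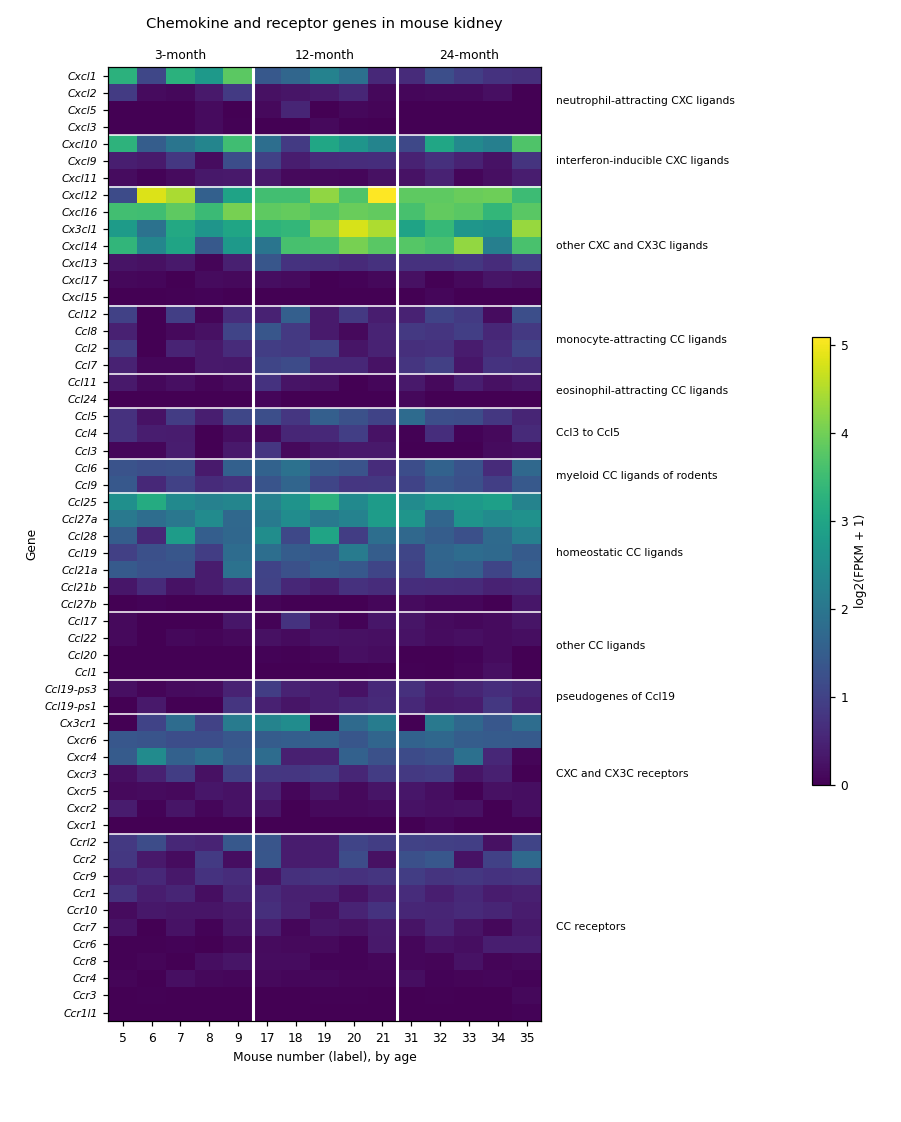
Level of 56 of the 57 genes (rows, grouped by role) in each of the 15 mice (columns, by age), as log2(FPKM + 1). Cxcl12, Cxcl16, Cx3cl1 and Cxcl14 are the brightest rows, Cxcl1 is brightest in 4 of the 5 3-month mice, and most receptors are dark at all ages.

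Between 24 and 3 months more members were higher than lower at an unadjusted p under 0.05, and the same held for all genes. Neutrophil-attracting Cxcl1 and Cxcl2 were lower at 24 months at an unadjusted p under 0.05. Those higher included B cell-attracting Cxcl13, monocyte-attracting Ccl7, Ccl8, and the receptors Ccr2, Ccr6, Ccr9, Ccr10 and Cxcr6. A gene was called when limma, fitted to log2(FPKM + 1) over all 31755 genes above 0 in these 10 mice, gave an unadjusted p under 0.05 and a difference above 1 on the log2 scale, which is the fold limit of the study. By that rule 1 of the 57 members was called, Cxcl1, beside 0.523% of all genes tested. With the p alone, 11 members were higher and 3 lower, that is 19.3% and 5.26% of the members, beside 11.4% and 3.47% of all genes, so that the share of members that were lower was near that of all genes. With the Benjamini-Hochberg adjusted p under 0.05, 1 member remained, Cxcl13, beside 1.22% of all genes. Which member passed the adjusted p depended on the setting (limma). With all 15 mice in 1 fit it was Cxcl1 (0.0321) in place of Cxcl13 (0.0622), with a minimum mean of 0.1 FPKM it was both (0.0439 and 0.0241), and with 0.1 FPKM added it was neither (0.0573 and 0.0639). In all, 42 members were above 0 and 15 below 0 in the difference. Ccl1, Ccl20, Ccl24, Ccr1l1 and Cxcr1, at 0 in all 3-month mice, could only be above 0. Cxcl3, at 0 in all 24-month mice, could only be below 0. The signs of all genes were not counted, so this split has no share of all genes beside it. The median was 0.09 for the members and 0.02 for all genes, on the log2(FPKM + 1) scale.

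**Figure D2:**
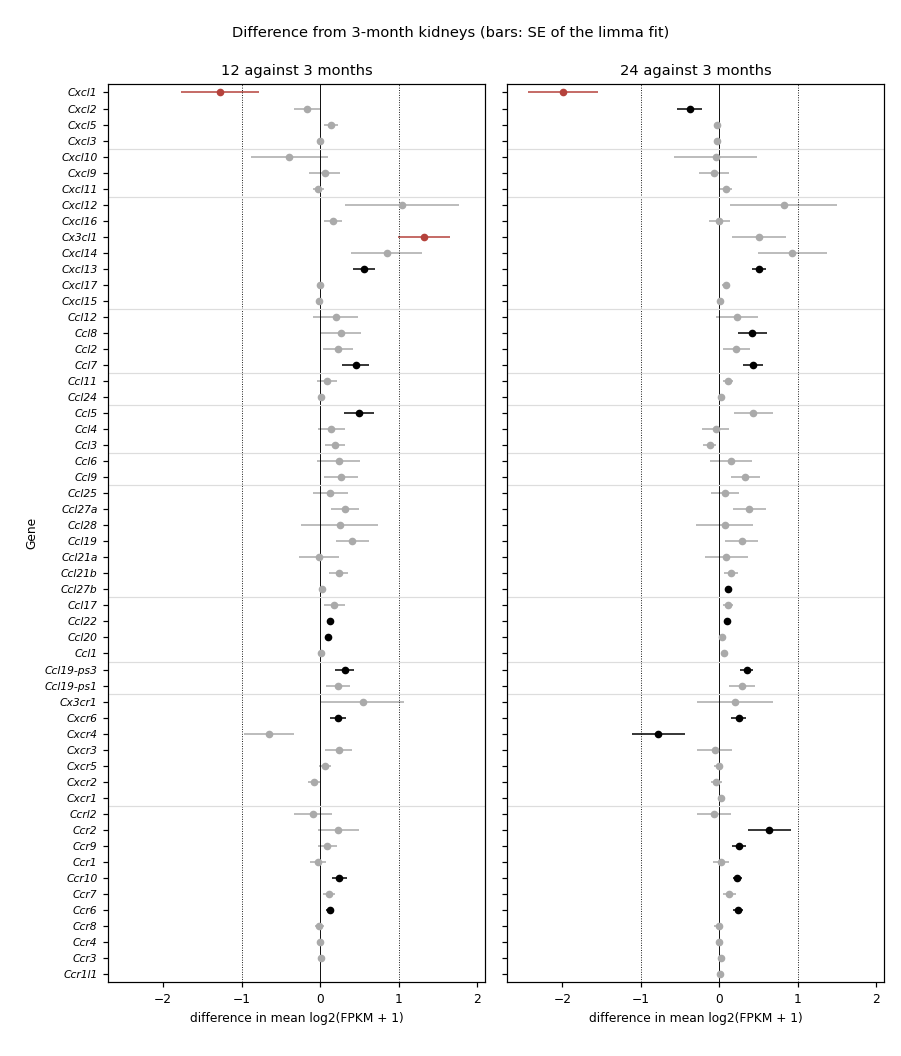
Difference in mean log2(FPKM + 1) of 12-month (left) and 24-month (right) kidneys from 3-month kidneys for 56 members, with the SE of the limma fit; dotted lines mark a difference of 1 in either direction. Red points were called, black points had an unadjusted p under 0.05 only, and grey points had neither; Cxcl1 lies at -1.99 on the right and Cx3cl1 at 1.32 on the left.

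Cxcl1, Cxcl2, Cxcl3, Cxcl5 and Cxcl15 lie on chromosome 5 within chr5:90759360-90905938 (GRCm38). Promoters from RefSeq (GRCm38.p6) were matched for 41 of the 57 members and searched over 250 bases before to 50 after the start on both strands. The 9 letters GGANTTTCC, which are like an NF-kB site, were in 1.25% of all 32851 promoters and in those of 6 members, namely Cxcl1, Cxcl2, Cxcl3, Cxcl10, Ccr3 and Ccrl2. In Cxcl1, Cxcl2 and Cxcl3 the same letters GGAATTTCC stood on the gene's strand, beginning 70, 96 and 72 bases before the start. The sequences from 250 to 51 bases before the start are shown because the neighbours Cxcl1, Cxcl2 and Cxcl3 share this stretch (capitals), and that of Cxcl13, described further on, is given beside them without a match. The other members that carry the match had small differences between 24 and 3 months on the log2(FPKM + 1) scale. They were -0.04 ± 0.53 (Cxcl10), -0.07 ± 0.22 (Ccrl2) and 0.02 ± 0.02 (Ccr3) (SE), each within its SE of 0. Whether the match goes with a direction of change was not tested. A match is a description of the letters and not of binding.
Cxcl1 (chr5:90890995-90891194, + strand): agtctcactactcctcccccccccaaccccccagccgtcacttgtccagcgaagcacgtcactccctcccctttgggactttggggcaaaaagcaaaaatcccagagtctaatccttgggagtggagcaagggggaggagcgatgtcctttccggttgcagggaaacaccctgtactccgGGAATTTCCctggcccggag
Cxcl2 (chr5:90903649-90903848, + strand): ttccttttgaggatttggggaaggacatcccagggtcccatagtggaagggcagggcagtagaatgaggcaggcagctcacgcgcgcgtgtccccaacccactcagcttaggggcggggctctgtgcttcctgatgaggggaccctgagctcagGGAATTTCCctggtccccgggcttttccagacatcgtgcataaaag
Cxcl3 (chr5:90785851-90786050, + strand): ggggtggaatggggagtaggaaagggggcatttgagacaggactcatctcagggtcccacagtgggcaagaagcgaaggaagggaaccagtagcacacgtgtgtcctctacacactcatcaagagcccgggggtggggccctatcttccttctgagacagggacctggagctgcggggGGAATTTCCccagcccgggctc
Cxcl13 (chr5:95956689-95956888, + strand): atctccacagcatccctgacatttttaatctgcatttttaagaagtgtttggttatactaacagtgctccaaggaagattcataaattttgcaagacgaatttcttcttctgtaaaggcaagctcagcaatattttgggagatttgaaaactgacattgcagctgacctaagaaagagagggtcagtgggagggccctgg
GAAANNGAA, which is like the interferon response element, was in 8.56% of all promoters and in those of 8 members, Cxcl9 and Cxcl10 among them. TTCNNNGAA, like a STAT site, was in 8.3% of all promoters and in those of 4 members.

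Cxcl1 was the member that differed most. It was at 8.70, 1.13, 8.58, 5.63 and 13.0 FPKM in the 3-month kidneys. It was at 1.63, 2.20, 3.81, 2.66 and 0.495 FPKM in the 12-month kidneys and at 0.548, 1.34, 0.921, 0.668 and 0.610 FPKM in the 24-month kidneys. Of the 3-month mice 4 lay above every 12- and 24-month mouse, while mouse 6 lay among them, so the ages overlapped. The mean was 7.41 ± 4.39 FPKM (SD, n = 5) at 3 months, 2.16 ± 1.23 at 12 months and 0.818 ± 0.326 at 24 months, 9.07 times as high at 3 as at 24 months. The difference between 24 and 3 months was -1.99 ± 0.44 (SE) on the log2(FPKM + 1) scale, with an unadjusted p = 0.00128 and an adjusted p of 0.0676 (limma, Benjamini-Hochberg), and the exact permutation test over the 10 mice gave p = 0.0159. The smallest p this permutation test can give is 0.00794. The spliced transcript ENSMUST00000031327, the unspliced ENSMUST00000201245 and the assembled MSTRG.27901.3 each had a lower mean at 24 months. Mouse 9, with the highest Cxcl1, also had the highest sum of tubular injury markers, 915 FPKM, against 127 to 326 FPKM in the other 14 mice, mostly from Spp1. Without mouse 9 the difference was -1.74 with an adjusted p of 0.12, and without mouse 6 it was -2.42 with an adjusted p of 0.0133 (limma).

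Cxcl2, its neighbour with the same receptor, was at 0.857, 0.115, 0.0857, 0.282 and 0.818 FPKM at 3 months. It was at 0.177, 0.223, 0.298, 0.459 and 0.0810 FPKM at 12 months and at 0.0599, 0.0723, 0.0739, 0.156 and 0.0114 FPKM at 24 months. Mice 5 and 9, among the highest for Cxcl1, were also the highest for Cxcl2. The difference between 24 and 3 months was -0.38 ± 0.16 (SE), with p = 0.0394 and an adjusted p of 0.301 (limma), and the exact permutation p was 0.0476. It had a p under 0.05 in only 4 of the 10 fits that each left out 1 mouse. Cxcl3 and Cxcl5 were at or near 0, with means of 0 to 0.025 and 0.005 to 0.135 FPKM per age. All 4 ligands listed as neutrophil-attracting had a negative difference, 2 of them with a p under 0.05. For Cxcl3 and Cxcl5 it was only -0.03 and -0.02, with p over 0.05 (limma). Cxcl3 was at 0 in all 24-month mice, so its difference could only be negative. Cxcl5 was at 0 in 4 of the 5 3-month mice. Cxcl15, in the same stretch of chromosome 5 but not in that list, differed by 0.004 ± 0.020 (SE). The receptor Cxcr2 stayed at means of 0.165 ± 0.114, 0.102 ± 0.0750 and 0.132 ± 0.0689 FPKM (SD, n = 5). Of 5 neutrophil markers none differed at a p under 0.05 between 24 and 3 months (limma), and their sum was 0.179 to 4.44 FPKM at 3 months and 1.61 to 3.26 FPKM at 24 months. Ly6g, a defining marker, was at 0 in 2 mice at 3 months and in 1 mouse at each other age.

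Of the 15 cytokines, NF-kB subunits and other inducers of chemokines that were listed, 14 were tested and 1 differed at a p under 0.05 between 24 and 3 months. This was Nfkbia, an NF-kB inhibitor whose gene NF-kB itself induces. Nfkbia was at 14.99, 11.9, 18.1, 19.5 and 22.1 FPKM at 3 months and at 7.50, 11.1, 8.37, 11.6 and 8.10 FPKM at 24 months. No 24-month mouse reached the lowest 3-month mouse, with a difference of -0.81 ± 0.18 (SE) and an adjusted p of 0.0612 (limma). The median difference of the 14 genes was 0.005.

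Cxcl13 (chr5:95956951-95961068), which draws B cells through Cxcr5, had the lowest p of all members. It was at 0.201, 0.177, 0.266, 0.0517 and 0.362 FPKM at 3 months. It was at 1.58, 0.670, 0.641, 0.519 and 0.662 FPKM at 12 months and at 0.648, 0.661, 0.778, 0.564 and 0.943 FPKM at 24 months. Every 12- and 24-month mouse lay above every 3-month mouse. Among 31755 genes, 3.82% were higher without overlap and 0.91% lower without overlap between 24 and 3 months, and among the 57 members 5 and 0. The mean of Cxcl13 was 3.40 times as high at 24 as at 3 months. The difference was 0.51 ± 0.09 (SE) with p = 0.000175 and an adjusted p of 0.0315 (limma), and the exact permutation p was 0.00794, the smallest possible. It missed the fold limit on the log2(FPKM + 1) scale, which understates the change of low genes, and with 0.1 FPKM added in place of 1 it was 1.47 ± 0.32 (SE) with an adjusted p of 0.0639 (limma). In the fits that each left out 1 mouse its adjusted p ran from 0.0432 to 0.0715 (limma), and it was under 0.05 in 3 of the 10, those without mouse 9, 32 or 34. Its receptor Cxcr5 was at means of 0.147 ± 0.0669, 0.199 ± 0.132 and 0.143 ± 0.0775 FPKM (SD, n = 5) at 3, 12 and 24 months, with overlap of all ages.

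The B cell markers moved with Cxcl13. The 4 reported here (Ms4a1, Cd79a, Cd79b and Pax5) were all higher at 24 than at 3 months at a p under 0.05. Their sum was 0.133 to 0.861 FPKM at 3 months, 1.08 to 4.59 FPKM at 12 months and 0.821 to 2.3 FPKM at 24 months, with no overlap between 3 months and either later age. Ms4a1 was at 0 in 1 mouse of 3 months and the others were above 0 in all mice. Of 4 plasma cell markers 1 was higher, Jchain, of 5 T cell markers 1, Cd3e, and of 4 fibroblast markers 2, Dcn and Pdgfrb. The follicular dendritic cell markers Cr2 and Fcer2a summed to 0.799 to 1.55, 1.06 to 2.36 and 1.23 to 2.095 FPKM at the 3 ages, and Fcer2a was higher at a p under 0.05. Of 4 lymphatic endothelium markers 2 were higher, Flt4 and Prox1, and their list summed to 5.18 to 7.97, 7.17 to 8.03 and 8.06 to 10.69 FPKM, without overlap between 3 and 24 months. The part of these cells in the level of Cxcl13 was not tested.

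**Figure D3:**
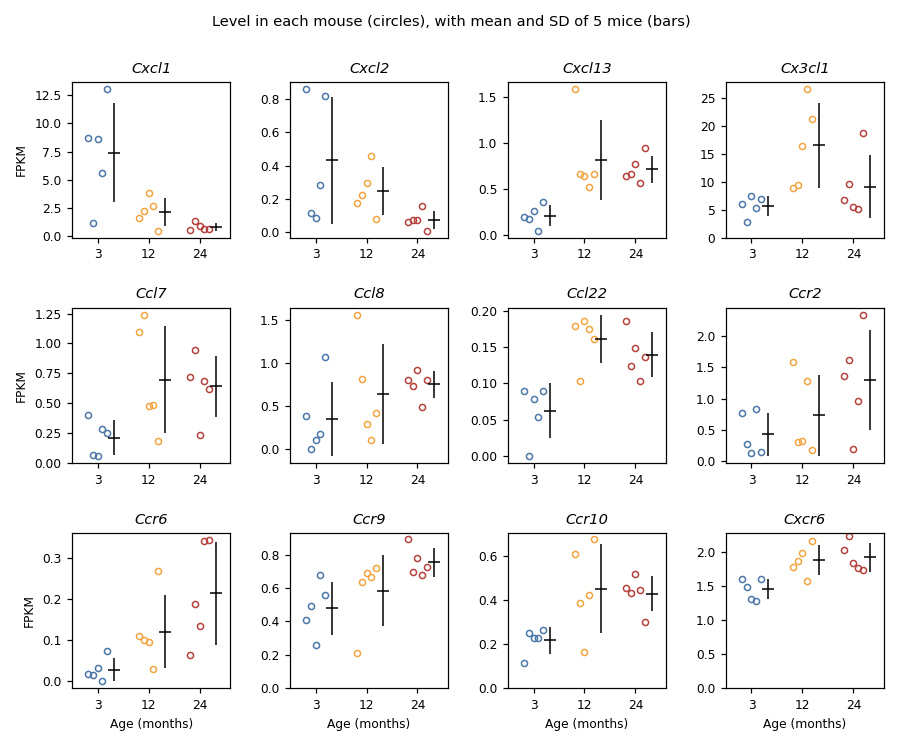
FPKM of 12 members in each mouse (circles) at 3, 12 and 24 months, with the mean and SD of 5 mice (bars). Cxcl13, Ccl22, Ccr9, Ccr10 and Cxcr6 show no overlap between 3 and 24 months, and Cxcl1 is lower in all older mice than in 4 of the 5 young mice.

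The 4 ligands listed as monocyte-attracting were Ccl2, Ccl7, Ccl8 and Ccl12. All had a positive difference between 24 and 3 months, from 0.22 to 0.43 with a median of 0.32. Of these, 2 (Ccl7 and Ccl8) had a p under 0.05, beside 11.4% of all genes that were higher. With median-ratio scaling and with all 15 mice in 1 fit Ccl7 still had one and Ccl8 did not. With Ccl11 they lie within chr11:82035571-82116799. Ccl7 was at 0.401, 0.0674, 0.0615, 0.280 and 0.250 FPKM at 3 months. It was at 1.10, 1.24, 0.475, 0.484 and 0.187 FPKM at 12 months and at 0.718, 0.943, 0.235, 0.689 and 0.620 FPKM at 24 months. Of the 24-month mice 4 lay above all 3-month mice, and mouse 33 did not. The difference was 0.43 ± 0.13 (SE) with p = 0.00737, an exact permutation p of 0.0317 and an adjusted p of 0.147 (limma).
Ccl8 was at 0.387, 0, 0.0965, 0.176 and 1.08 FPKM at 3 months, with mouse 9 above all 24-month mice. At 12 months Ccl8 was at 1.57, 0.810, 0.289, 0.101 and 0.412 FPKM, and at 24 months at 0.807, 0.731, 0.921, 0.491 and 0.799 FPKM. The difference was 0.42 ± 0.18 (SE) with p = 0.0458, an adjusted p of 0.323 (limma) and an exact permutation p of 0.0794, and it had a p under 0.05 in 2 of the 10 fits that left out 1 mouse. Ccl2 and Ccl12 were at means of 0.42 and 0.505 FPKM at 3 months and 0.636 and 0.747 FPKM at 24 months, with p over 0.05.
Ccr2, the receptor of Ccl2, Ccl7 and Ccl12, was at 0.769, 0.278, 0.129, 0.835 and 0.136 FPKM at 3 months. It was at 1.58, 0.312, 0.319, 1.28 and 0.169 FPKM at 12 months and at 1.37, 1.62, 0.186, 0.968 and 2.35 FPKM at 24 months. The spread was wide at every age, and mouse 33 lay near the lowest young mice. The difference between 24 and 3 months was 0.64 ± 0.28 (SE) with p = 0.0449, an exact permutation p of 0.0635 and an adjusted p of 0.319 (limma), and it had a p under 0.05 in 3 of the 10 fits that left out 1 mouse. Of 5 macrophage markers none differed at a p under 0.05, and their sum was 11.81 to 22.03 FPKM at 3 months and 14.2 to 27.6 FPKM at 24 months.

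Cx3cl1, fractalkine, is a chemokine made as a membrane protein by endothelium and epithelium, and it had the largest positive difference of all members between 12 and 3 months. It was at 5.96, 2.77, 7.44, 5.32 and 6.97 FPKM at 3 months. It was at 8.88, 9.44, 16.4, 26.6 and 21.3 FPKM at 12 months and at 6.78, 9.70, 5.43, 5.07 and 18.8 FPKM at 24 months. Every 12-month mouse lay above every 3-month mouse, while the 24-month mice overlapped both. The mean was 2.90 times as high at 12 as at 3 months. The difference was 1.32 ± 0.33 (SE) with p = 0.00263 and an adjusted p of 0.118 (limma), and the exact permutation p was 0.00794. Between 24 and 3 months it was 0.51 ± 0.35 (SE) with an exact permutation p of 0.262.
The high values rested on 1 of its 7 transcripts, ENSMUST00000034230 at chr8:94772009-94782427 (GRCm38). This transcript was at 11.1, 19.9 and 16.9 FPKM in mice 19, 20 and 21 and at 14.6 FPKM in mouse 35, and at 0.668 to 2.65 FPKM in the other 11 mice. No mouse lay between 2.65 and 11.1 FPKM. When the gene was summed without it, the difference between 12 and 3 months was 0.38 ± 0.24 (SE) with an adjusted p of 0.51 (limma, an alternative chosen after seeing the data), and Cx3cl1 was no longer called.
Some markers of several cell types were also higher at 12 months. The tubular injury marker Havcr1 and the macrophage marker C1qa, named after their values were seen, were called between 12 and 3 months with differences of 1.27 ± 0.37 and 1.11 ± 0.46 (SE) and adjusted p of 0.17 and 0.316 (limma). Havcr1 was lower again at 24 than at 12 months, by -1.17 ± 0.34 (SE). Of 4 fibroblast markers 3 had a p under 0.05, and the 4 summed to 17.6 to 36.8 FPKM at 3 months and 39.6 to 62.97 FPKM at 12 months. None of 4 endothelium markers had a p under 0.05 in that comparison, and they summed to 35.7 to 56.4 and 39.3 to 66.9 FPKM. The part of these cells in the level of Cx3cl1 was not tested.

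Transcripts of other members also fell into separate levels. Of the 20 member transcripts with a mean of at least 1 FPKM, 4 had a gap of at least 3-fold (after adding 0.1 FPKM) with at least 3 mice on each side, that is 20% beside 9.11% of the 28346 transcripts of all genes. These were 2 of Cxcl12 and 1 each of Cx3cr1 and Cx3cl1. Cxcl12, which keeps haematopoietic cells in niches through Cxcr4, was at 1.23, 27.6, 20.95, 1.94 and 6.75 FPKM at 3 months. It was at 10.8, 10.8, 17.96, 11.97 and 33.2 FPKM at 12 months and at 13.3, 13.2, 14.4, 14.8 and 10.3 FPKM at 24 months. The young mice spread most widely, while the 24-month mice lay close together. Transcript ENSMUST00000112871 was at 11.8 FPKM or more in mice 6, 7, 19 and 21 and at 1.49 FPKM or less in the other 11. ENSMUST00000134244 was at 0.337 FPKM or less in mice 5, 8 and 19 and at 4.77 FPKM or more in the other 12. For the gene the difference between 24 and 3 months was 0.82 ± 0.68 (SE) with an exact permutation p of 0.317.

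Cx3cr1, the receptor of Cx3cl1 on monocytes and macrophages, was listed at 0 in mice 5 and 31 and at 0.0062 FPKM in mouse 19, and at 0.999 to 4.57 FPKM in the other 12. It has 3 transcripts. ENSMUST00000064165 was above 1 FPKM in 9 mice, ENSMUST00000215016 in mice 32 and 35, and ENSMUST00000177637 in mice 18 and 21. The macrophage markers Csf1r and Adgre1 were at 6.33 FPKM or more and 1.54 FPKM or more in every library. Cxcr6 also changed transcripts between mice, while its sum stayed between 1.29 and 2.24 FPKM. In each mouse 1 of its 2 transcripts, ENSMUST00000049810 in 8 mice and ENSMUST00000216072 in 7, was above 1 FPKM and the other close to 0. How the authors' estimation shared reads between transcripts was not tested.

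**Figure D4:**
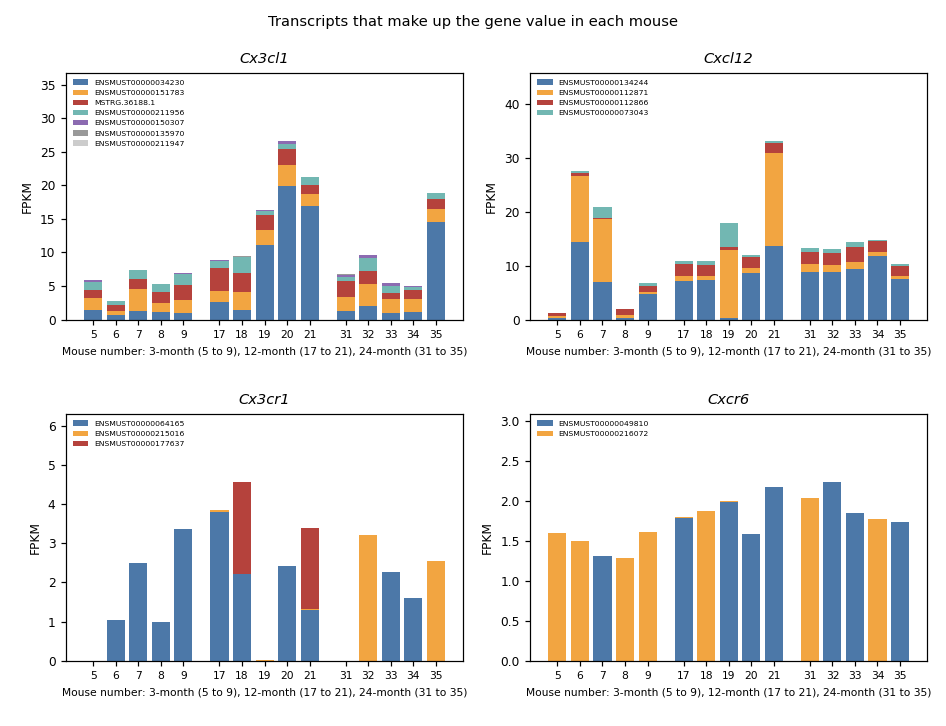
FPKM of each transcript (colours), stacked to the gene value (bar height), in each mouse for Cx3cl1, Cxcl12, Cx3cr1 and Cxcr6. The tall Cx3cl1 bars of mice 19, 20, 21 and 35 come from ENSMUST00000034230, and Cx3cr1 is at 0 in mice 5 and 31. Cxcr6 stays between 1.29 and 2.24 FPKM while its transcript changes.

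The other ligands with high levels had no p under 0.05 between 24 and 3 months. Cxcl16, a membrane-bound ligand of Cxcr6, was at 10.7, 10.6, 13.2, 10.1 and 15.6 FPKM at 3 months. It was at 13.3, 13.9, 12.3, 14.2 and 13.6 FPKM at 12 months and at 11.3, 13.6, 12.9, 9.36 and 12.9 FPKM at 24 months. It was the most even of the high members, with a difference of 0.003 ± 0.135 (SE) between 24 and 3 months. Of its exon bases 18.3% are shared with Zmynd15 on the opposite strand.
Cxcl14, an epithelial chemokine whose receptor is not settled, was at 9.23, 4.06, 6.84, 1.67 and 5.74 FPKM at 3 months. It was at 2.94, 11.3, 11.5, 15.7 and 12.8 FPKM at 12 months and at 12.5, 11.5, 18.3, 3.57 and 11.4 FPKM at 24 months. Most older mice were above the young mice, but mice 17 and 34 were among the lowest. The difference between 24 and 3 months was 0.93 ± 0.44 (SE) with p = 0.0613 (limma) and an exact permutation p of 0.0873, and it was called without mouse 5, at 1.13, and without mouse 34, at 1.26.
Cxcl10 was at 8.79, 1.82, 2.96, 4.01 and 10.6 FPKM at 3 months. It was at 2.59, 0.818, 7.14, 5.28 and 3.94 FPKM at 12 months and at 1.15, 7.09, 4.31, 3.60 and 11.9 FPKM at 24 months. The ages overlapped widely. The 3 interferon-inducible ligands had differences of -0.07 to 0.09 between 24 and 3 months and none had a p under 0.05.
Ccl25, which draws thymocytes and gut lymphocytes through Ccr9, was at 4.83, 7.83, 4.38, 3.72 and 4.02 FPKM at 3 months. It was at 3.72, 5.16, 8.70, 4.32 and 5.93 FPKM at 12 months and at 4.48, 5.44, 5.71, 6.39 and 3.83 FPKM at 24 months. The ages overlapped over nearly their whole range. Of its 10 transcripts, ENSMUST00000098949 had the highest mean, 1.45 FPKM, and ended at chr8:4348788. ENSMUST00000024004 and ENSMUST00000110982 start beyond it, at chr8:4349588, and were at means of 0.215 and 0.208 FPKM. Others, such as ENSMUST00000136191 (0.606 FPKM) and ENSMUST00000127460 (0.575 FPKM), reach across both positions. How much of the sum is chemokine mRNA was not tested.
Ccl27a, a skin-associated ligand of Ccr10, was at 3.18, 2.53, 3.08, 4.53 and 2.30 FPKM at 3 months. It was at 3.22, 4.57, 3.17, 3.80 and 6.04 FPKM at 12 months and at 5.29, 2.21, 5.25, 4.47 and 4.97 FPKM at 24 months. The difference between 24 and 3 months was 0.38 ± 0.21 (SE) with an exact permutation p of 0.143.

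The other low ligands with a p under 0.05 between 24 and 3 months were Ccl22, Ccl27b and the pseudogene Ccl19-ps3. Ccl22, made by dendritic cells and macrophages for Ccr4, was at 0.0891, 0, 0.0779, 0.0542 and 0.0899 FPKM at 3 months. It was at 0.180, 0.104, 0.187, 0.175 and 0.162 FPKM at 12 months and at 0.186, 0.123, 0.149, 0.104 and 0.136 FPKM at 24 months, without overlap of either with 3 months. Its differences were 0.13 ± 0.03 and 0.10 ± 0.03 (SE) with adjusted p of 0.102 and 0.128 (limma). Of 4 dendritic cell markers 2, Flt3 and Clec9a, were higher at 24 than at 3 months at a p under 0.05, and the 4 summed to 4.07 to 5.01, 3.73 to 5.43 and 4.25 to 5.88 FPKM at the 3 ages. The part of these cells in the level of Ccl22 was not tested.
Ccl19-ps3 was at 0.149, 0.0542, 0.115, 0.129 and 0.399 FPKM at 3 months. It was at 0.894, 0.407, 0.331, 0.195 and 0.493 FPKM at 12 months and at 0.622, 0.330, 0.451, 0.580 and 0.458 FPKM at 24 months. Only mouse 9 of the young mice reached the 24-month range, and the difference was 0.35 ± 0.08 (SE) with an adjusted p of 0.0805 (limma). Its parent Ccl19, at means of 1.46, 2.25 and 1.97 FPKM, had a difference of 0.28 ± 0.21 (SE) with an adjusted p of 0.577 (limma), and reads of near-identical copies (Ccl19 and its pseudogenes, Ccl21a and Ccl21b, Ccl27a and Ccl27b) may have been shared between them.
Ccl27b was at 0 in 4 of the 5 3-month mice and at 0.0327 FPKM in mouse 6. It was at 0.0493, 0.0118, 0, 0 and 0.0712 FPKM at 12 months and at 0.110, 0.0641, 0.0589, 0 and 0.237 FPKM at 24 months. All its values were at 0.237 FPKM or less, and it had a p under 0.05 in 5 of the 10 fits that left out 1 mouse.
Ccl20, the ligand of Ccr6, was listed at 0 in all 3-month mice, at 0.0162 to 0.163 FPKM in all 12-month mice and at 0 to 0.105 FPKM at 24 months. Ccl1, Ccl24, Ccr1l1 and Cxcr1 were also at 0 in all 3-month mice, with means of at most 0.0464 FPKM at any age. The 22 ligands outside the naming rule ranged in mean over the 15 mice from 0.008 to 2.69 FPKM, and none had a p under 0.05 between 24 and 3 months.

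Of the 19 receptors, 5 were higher and 1 lower at 24 than at 3 months at a p under 0.05, that is 26.3% and 5.26%, beside 11.4% and 3.47% of all genes. Each differed by less than 1 on the log2(FPKM + 1) scale. Cxcr6, found on memory T and NKT cells, was at 1.600, 1.49, 1.31, 1.29 and 1.61 FPKM at 3 months. It was at 1.79, 1.88, 1.99, 1.58 and 2.17 FPKM at 12 months and at 2.04, 2.24, 1.84, 1.77 and 1.73 FPKM at 24 months. All 24-month mice lay above all 3-month mice, though by a small step of 1.32 times in the mean, with a difference of 0.25 ± 0.09 (SE), p = 0.0249, an exact permutation p of 0.00794 and an adjusted p of 0.25 (limma), and a p under 0.05 in 6 of the 10 fits that left out 1 mouse.
Ccr10 was at 0.114, 0.250, 0.229, 0.226 and 0.266 FPKM at 3 months. It was at 0.610, 0.386, 0.163, 0.424 and 0.678 FPKM at 12 months and at 0.454, 0.432, 0.517, 0.448 and 0.300 FPKM at 24 months. Ccr10 is carried by plasma cells and skin-homing T cells. Its mean was 1.98 times as high at 24 as at 3 months without overlap, with a difference of 0.23 ± 0.05 (SE), p = 0.00167, an exact permutation p of 0.00794 and an adjusted p of 0.0744 (limma).
Ccr9, the receptor of Ccl25, was at 0.411, 0.494, 0.257, 0.678 and 0.560 FPKM at 3 months. It was at 0.211, 0.639, 0.691, 0.664 and 0.722 FPKM at 12 months and at 0.897, 0.698, 0.778, 0.681 and 0.725 FPKM at 24 months. The gap between the highest young and the lowest 24-month mouse was only that between 0.678 and 0.681 FPKM. The difference was 0.25 ± 0.09 (SE) with an adjusted p of 0.227 (limma). Other genes share 18.8% (AC165425.1, opposite strand) and 2.62% (Gm17200, same strand) of its exon bases.
Ccr6, carried by B cells and Th17 cells, was at 0.0172, 0.0154, 0.0317, 0 and 0.0729 FPKM at 3 months. It was at 0.109, 0.0993, 0.0936, 0.0295 and 0.268 FPKM at 12 months and at 0.0622, 0.187, 0.135, 0.340 and 0.343 FPKM at 24 months. Of the 24-month mice only mouse 31 lay below the highest 3-month mouse, and the mean was 7.76 times as high at 24 as at 3 months. The difference was 0.23 ± 0.06 (SE) with p = 0.00469, an exact permutation p of 0.0159 and an adjusted p of 0.118 (limma), and 1.22 ± 0.30 with 0.1 FPKM added.
Cxcr4, the receptor of Cxcl12, was the receptor that was lower. It was at 1.76, 4.47, 1.996, 2.57 and 1.75 FPKM at 3 months. It was at 2.48, 0.358, 0.383, 2.0003 and 1.40 FPKM at 12 months and at 1.25, 1.376, 2.70, 0.474 and 0.0430 FPKM at 24 months. Mice 17, 20 and 33 lay within the young range, and mice 18, 19, 34 and 35 below 0.5 FPKM. The difference was -0.77 ± 0.34 (SE) with p = 0.0471, an adjusted p of 0.327 (limma) and an exact permutation p of 0.0873, and it had a p under 0.05 in 1 of the 10 fits that left out 1 mouse. The other 13 receptors ranged in mean over the 15 mice from 0.0025 to 2.12 FPKM.

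**Figure D5:**
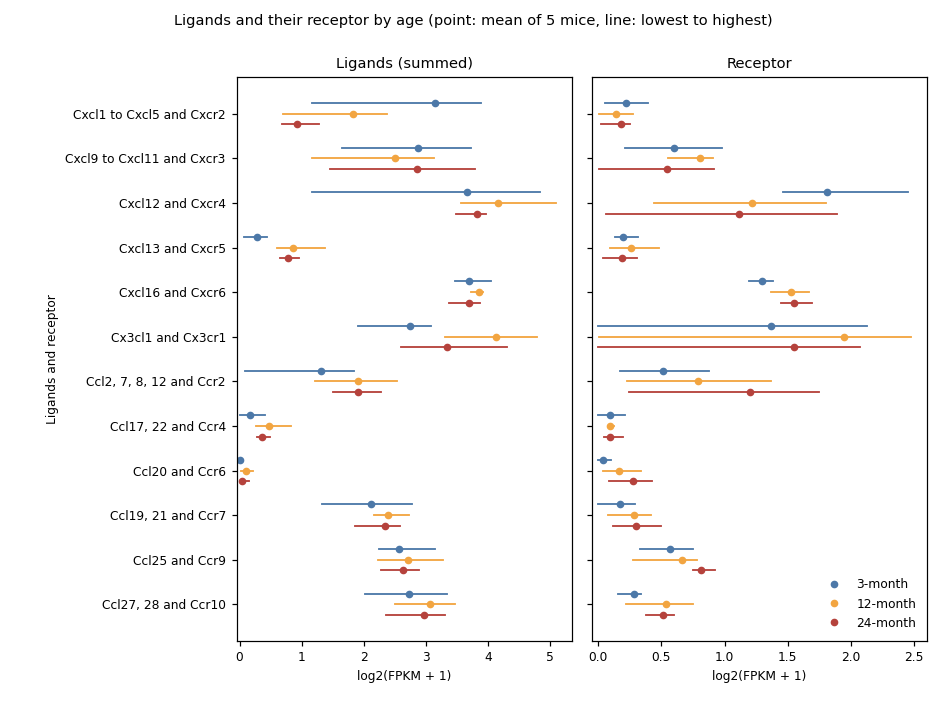
Summed ligands (left) and receptor (right) of 12 pairings by age, as log2(FPKM + 1); points are means of 5 mice and lines run from the lowest to the highest mouse. The summed Cxcr2 ligands fall from a mean of 7.89 to 0.897 FPKM while Cxcr2 overlaps at all ages, and Cxcl13 lies higher at 12 and 24 months while Cxcr5 overlaps.

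Ligands and receptors were set side by side in 12 pairings, without a test of the sums. For Ccr2 both means were higher at 24 than at 3 months. The summed Ccl2, Ccl7, Ccl8 and Ccl12 were at 1.48 ± 1.08, 2.74 ± 1.54 and 2.77 ± 0.81 FPKM (SD, n = 5) at 3, 12 and 24 months. Ccr2 was at 0.430 ± 0.346, 0.734 ± 0.651 and 1.30 ± 0.800 FPKM. Ccl8 was summed with the others by the list, and its action on Ccr2 was not tested. For Cxcr2 the summed ligands were at 7.89 ± 4.65, 2.57 ± 1.36 and 0.897 ± 0.336 FPKM. For Cxcr6, Ccr9 and Ccr10 the receptor was higher while Cxcl16, Ccl25 and the summed Ccl27 and Ccl28 overlapped between all ages. The ligands together summed to medians of 66.5, 99.6 and 81.9 FPKM and the receptors to 10.7, 11.4 and 11.3 FPKM at the 3 ages.

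Genes that act behind the receptors were also listed. Of 23 signalling genes, 5 were higher at 24 than at 3 months (Fgr, Gng2, Grk6, Rac2 and Was) and 2 lower (Grk5 and Rgs1) at a p under 0.05, beside 11.4% and 3.47% of all genes, and none was called. Fgr, a Src family kinase of myeloid cells, differed by 0.63 ± 0.13 (SE) with an adjusted p of 0.0597 (limma), and Rgs1, which damps chemokine receptor signals, by -0.39 ± 0.15. Of 10 other chemokines and atypical receptors (Ackr1 to Ackr4, Xcl1, Pf4 and others) none had a p under 0.05 in that comparison. Ackr3, a scavenger of Cxcl12 named after its values were seen, was at 12.1 FPKM in mouse 9 and at 0.731 FPKM or less in the other 14.

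Between 12 and 3 months, where 55 members and 31637 genes were tested, 2 members were called, Cx3cl1 (higher) and Cxcl1 (lower), beside 0.499% of all genes. The p alone gave 10 higher and 1 lower, beside 11.4% and 2.9% of all genes, and the adjusted p gave 0 members, beside 0.25%. Cxcl1 had a difference of -1.27 ± 0.50 (SE) with p = 0.0299, an exact permutation p of 0.0556 and an adjusted p of 0.29 (limma), and was called in 5 of the 10 fits that left out 1 mouse, not without mice 5, 7, 9, 17 or 21. Cxcl13 had a difference of 0.56 ± 0.14 (SE), p = 0.00314, an exact permutation p of 0.00794 and an adjusted p of 0.125 (limma). Ccl5, which draws T cells, was higher at 12 months by the p alone, with a mean of 1.28 ± 0.431 against 0.633 ± 0.383 FPKM (SD, n = 5). With 0.1 FPKM added its difference was 1.04 ± 0.42 (SE), and it was called (limma). The other 7 of the 10 higher members were Ccl22, Ccl7, Ccl20, Ccl19-ps3, Ccr10, Ccr6 and Cxcr6. Both comparisons use the same 3-month mice, so they are not independent.

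Between 24 and 12 months none of 57 members was called by limma, beside 0.17% of 32282 genes, and none passed the adjusted p, beside 0.0031%. At an unadjusted p under 0.05, 0 were higher and 3 lower (Cxcl1, Cxcl2 and Ccl3), beside 3.07% and 3.36% of all genes. Cxcl1 differed by -0.71 ± 0.29 (SE) with an exact permutation p of 0.0556, and Cxcl2 by -0.21 ± 0.07 with an exact permutation p of 0.0159. Ccl3, a chemokine of activated macrophages, was at 0.746, 0.0901, 0.221, 0.27 and 0.275 FPKM at 12 months, and at 0 in 3 of the 5 24-month mice.

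The amount added before the log set how many low members were called. With 0.1 FPKM in place of 1 FPKM, 7 of 57 members were called between 24 and 3 months, beside 3.29% of all genes: Cxcl13, Ccl7, Ccl8, Ccr6 and Ccl19-ps3 were higher and Cxcl1 and Cxcl2 lower. Their differences on that scale ran from 1.22 to 1.47 upward, and were -2.75 and -1.32 for Cxcl1 and Cxcl2.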

How the data were processed

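Kidney RNA of 15 male mice labelled C57BL/6 (C57BL/6J in the study's text) (5 at each of 3, 12 and 24 months) was sequenced. The study describes poly(A) selection, whereas the sample notes give rRNA depletion of total RNA, and both describe a stranded kit. The study names Cutadapt 1.9, Bowtie2 and HISAT2, and the submitters' processing notes name TopHat, TopHat2 and StringTie. The build was GRCm38 with Ensembl release 88. The 12-month mice are given by the sample labels and not by the study's methods. The sample titles begin with 3MK at all 3 ages, so the ages were taken from the age labels.

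The authors assembled transcripts with StringTie and deposited an FPKM per transcript and mouse, with the coverage per transcript. The deposited tables also hold estimated counts for circular RNAs, and none of the 11929 had a member as host. All per-sample columns were mapped (0 not used). Here the FPKM of transcripts with class code =, c, j or o (4 codes) were summed per gene, 1 FPKM was added and log2 taken. limma 3.58.1 (R 4.3.3, trend) was fitted on all genes above 0 in the 2 ages compared, after a test on simulated data. A call was an unadjusted p under 0.05 with a log2 difference above 1, and Benjamini-Hochberg adjusted p-values over all genes tested are given beside it. Exact permutation tests were 2-sided over 252 assignments of 10 mice. No count test was run, because gene counts were not used here.

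Members given in full were the 21 that had an unadjusted p under 0.05 between 24 and 3 months, a call in any comparison, or a rank among the 8 with the highest mean. The members, gene lists and tests were chosen with earlier results of these data known. Alternatives were 0.1 FPKM added, a minimum mean of 0.1 FPKM, TPM with 1 TPM added and median-ratio scaling. Further ones were 1 fit of all 15 mice, annotated transcripts only and leaving out each mouse. A search of protein sequences was not run. The values of 1 member and of 1 B cell marker are not reported here. Python 3.11.15, numpy 2.4.6, pandas 2.3.3 and matplotlib 3.10.9 were used.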

Additional observations from a re-analysis of the deposited data

Results flagged for a closer look

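In 7 of the 63 groups of 5 mice tested, 1 mouse stood apart from the others of its age by Dixon's test at the 95% level. Chance flags about 1 in 20 groups. Among the 3-month mice, mouse 9 was highest for Ccl19-ps3 at 0.399 FPKM, where the next was at 0.149 FPKM. Mouse 6 was highest for Ccl25 at 7.83 FPKM, where the next was at 4.83 FPKM, and for Ccl27b at 0.0327 FPKM, where the others were at 0. Mouse 5 was lowest for Ccr10 at 0.114 FPKM, where the next was at 0.226 FPKM. Among the 12-month mice, mouse 17 was highest for Cxcl13 at 1.58 FPKM, where the next was at 0.671 FPKM, and lowest for Ccr9 at 0.211 FPKM, where the next was at 0.639 FPKM. Among the 24-month mice, mouse 32 was lowest for Ccl27a at 2.21 FPKM, where the next was at 4.47 FPKM.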

How the results depend on the processing

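The number of members called depended on the scale and on the amount added before the log. Between 24 and 3 months 1 was called, against 7 with 0.1 FPKM added, 3 in TPM, 14 by the unadjusted p alone and 1 to 2 when 1 mouse was left out. Between 12 and 3 months 2 were called, against 6 with 0.1 FPKM added, 11 by the p alone, 0 by the adjusted p, 1 without ENSMUST00000034230 and ENSMUST00000112871, and 1 to 2 without 1 mouse. Between 24 and 12 months 0 were called, against 2 with 0.1 FPKM added, 3 by the p alone and 0 to 1 without 1 mouse (Cx3cl1). Direction between 24 and 3 months turned for Ccl25 (-0.0013 to 0.22 without 1 mouse), Cxcl10 (0.17 with annotated transcripts only, -0.34 to 0.30 without 1 mouse) and Cxcl16 (-0.056 with median-ratio scaling, -0.051 to 0.093 without 1 mouse), all with small differences. The cause was not tested. Of the other values of single members, 378 kept direction and side of the call, 10 became called and 6 lost the call.

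Over all genes, calls between 24 and 3 months went from 166 to 1046 with 0.1 FPKM added and 582 in TPM (401 higher, against 82 of 166). Those by the adjusted p went from 386 to 678 with all 15 mice and 190 with annotated transcripts only. In the TPM setting 1 TPM was added before the log. The FPKM of a mouse summed to 218394.3 to 242729.5, so 1 TPM was less than 1 FPKM. The amount added thus changed along with the scale. By the p alone, 3624 of 4725 were higher, and 3029 of 4593 after median-ratio scaling. Between 12 and 3 months 158 became 923 and 476 (TPM), the adjusted p gave 79, 299 and 27, and 3620 of 4537 became 2673 of 4222. Between 24 and 12 months 55 became 323 and 191 (TPM). Between 24 and 3 months the median of genes with a mean log2 value above 1 was 0.05 in FPKM and 0.107 in TPM. The limit was set in each unit, so these medians are not of the same genes.

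No paired analysis was possible because the ages share no mouse numbers. FPKM carry no counting error, so members below 1 FPKM have no interval from depth, and the 3-month libraries were the shallowest.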
